A study of Mus musculus with 10 samples.

Results

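The 10 genes described here, Egr1, Egr2, Egr3, Nr4a1, Nr4a2, Nr4a3, Ier2, Ier3, Btg2 and Klf4, are immediate early genes, taken by symbol from the deposited tables of 24063 gene symbols. Where a symbol had several transcripts, the transcript with the most reads over all libraries was kept. RNA came from mouse quadriceps in 5 libraries of the 1C-MIM group, whose drinking water carried a supplement of that name, and 5 of the Control group, which drank the water of the animal facility. The animals were wild-type C57BL mice between 17 and 20 months old, and 1C-MIM was supplied over 1 to 3 months. In both groups the tibialis anterior (TA) had been injured, while the quadriceps had not. The composition of 1C-MIM, the sex of the animals, the time of collection and the handling of the tissue are not stated by the labels.

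Immediate early genes are transcribed within minutes of a stimulus from factors already present in the cell, mainly serum response factor with its ternary complex partners and the cAMP response element binding protein CREB, and their transcripts are short-lived. The EGR proteins are zinc finger transcription factors and the NR4A proteins are nuclear receptors whose activity is set chiefly by their abundance. In skeletal muscle, contraction and adrenergic signalling are known to raise several of these genes, Nr4a1 and Nr4a3 among them.

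Promoter windows from RefSeq (GRCm38.p6) were found for 7 of the 10 genes: Egr2, Nr4a1, Nr4a2, Nr4a3, Ier3, Btg2 and Klf4. The submitters' processing notes name GRCm39, so the coordinates are those of the table and not of the reads. Egr2 has 5 windows, of which the one at the start of the counted transcript was used, and the start used for Nr4a3 lies 152 bases from that of its counted transcript. Shown are the 250 bases before the start for the NR4A genes, which share one kind of element, for Egr2, the EGR gene with a window, and for Btg2, the window with a full element. Capitals mark the CRE half-site TGACG on either strand, the full CRE TGACGTCA, which holds the half-site on both strands, and the CArG box bound by serum response factor.
Nr4a1 (chr15:101266596-101266845, plus strand): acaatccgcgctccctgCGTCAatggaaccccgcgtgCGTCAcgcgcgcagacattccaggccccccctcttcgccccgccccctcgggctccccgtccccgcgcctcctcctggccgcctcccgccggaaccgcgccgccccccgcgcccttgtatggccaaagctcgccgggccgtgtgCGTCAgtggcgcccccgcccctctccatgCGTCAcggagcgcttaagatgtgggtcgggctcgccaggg
Nr4a2 (chr2:57124004-57124253, minus strand): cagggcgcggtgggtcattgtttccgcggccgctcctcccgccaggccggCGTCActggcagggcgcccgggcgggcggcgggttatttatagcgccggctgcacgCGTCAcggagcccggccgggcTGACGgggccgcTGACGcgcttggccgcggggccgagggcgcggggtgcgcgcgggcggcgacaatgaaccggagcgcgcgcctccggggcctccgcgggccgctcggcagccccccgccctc
Nr4a3 (chr4:48045055-48045304, plus strand): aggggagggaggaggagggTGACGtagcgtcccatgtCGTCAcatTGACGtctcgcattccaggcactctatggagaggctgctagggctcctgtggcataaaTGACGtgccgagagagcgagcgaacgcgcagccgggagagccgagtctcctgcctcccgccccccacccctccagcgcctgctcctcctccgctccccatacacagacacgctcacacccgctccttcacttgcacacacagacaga
Egr2 (chr10:67537619-67537868, plus strand): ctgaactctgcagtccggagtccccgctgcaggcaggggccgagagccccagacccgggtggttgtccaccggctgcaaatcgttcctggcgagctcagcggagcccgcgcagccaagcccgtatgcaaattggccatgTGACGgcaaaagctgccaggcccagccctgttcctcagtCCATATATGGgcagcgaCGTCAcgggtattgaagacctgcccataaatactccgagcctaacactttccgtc
Btg2 (chr1:134079156-134079405, minus strand): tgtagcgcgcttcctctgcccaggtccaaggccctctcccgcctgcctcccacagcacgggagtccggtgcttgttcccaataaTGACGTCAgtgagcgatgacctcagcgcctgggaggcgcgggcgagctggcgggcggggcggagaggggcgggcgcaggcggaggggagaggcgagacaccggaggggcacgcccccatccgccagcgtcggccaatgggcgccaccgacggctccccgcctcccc
The half-site was found in 6 of the 7 windows, in all but Ier3, and in 20.8% of the 32851 RefSeq windows of the same length searched on both strands. Each window searched ran on past the start and was longer than the 250 bases shown, for these genes and for all windows alike. It occurred at 4 positions each in Nr4a1, Nr4a2 and Nr4a3. The full CRE lay in the Btg2 window, with its first base 166 bases before the start, and in 1.79% of all windows. The CArG box lay in the Egr2 window, beginning 72 bases before the start, and in 1.63% of all windows. The EGR site GCGTGGGCG (0.612% of all windows) and the NR4A element AAAGGTCA (1.51%) were found in 0 of the 7 windows.

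All 10 genes passed the filter on low counts and were tested among 13880 genes. In 1C-MIM muscle 5 of the 10 were lower (Egr1, Egr3, Ier2, Ier3 and Btg2) by edgeR's quasi-likelihood test, at a Benjamini-Hochberg adjusted p under 0.05. With edgeR 0 were higher, and the count was also 0 at an unadjusted p under 0.05, with DESeq2 and with limma-voom. Among all tested genes 11.8% were called lower and 9.78% higher, 21.6% in all. The median log2 fold change (1C-MIM over Control) of the 10 was -0.63, against 0.00 over all tested genes, and each of the 10 had a negative value. The groups did not overlap in 5 of the 10 genes (Egr1, Egr3, Ier3, Btg2 and Klf4), all lower in 1C-MIM. Of all tested genes 7.98% had such a gap with 1C-MIM lower and 6.6% with 1C-MIM higher, 14.6% in all. In bulk tissue, fewer cells of a type and less RNA per cell cannot be told apart. Without Control 1, in which most of these genes were highest, 6 of the 10 were called lower, Klf4 being the sixth, and the median was -0.45. In that fit 1562 of 13970 tested genes were called lower, and their median log2 fold change over all tested genes was 0.00.

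**Figure D1:**
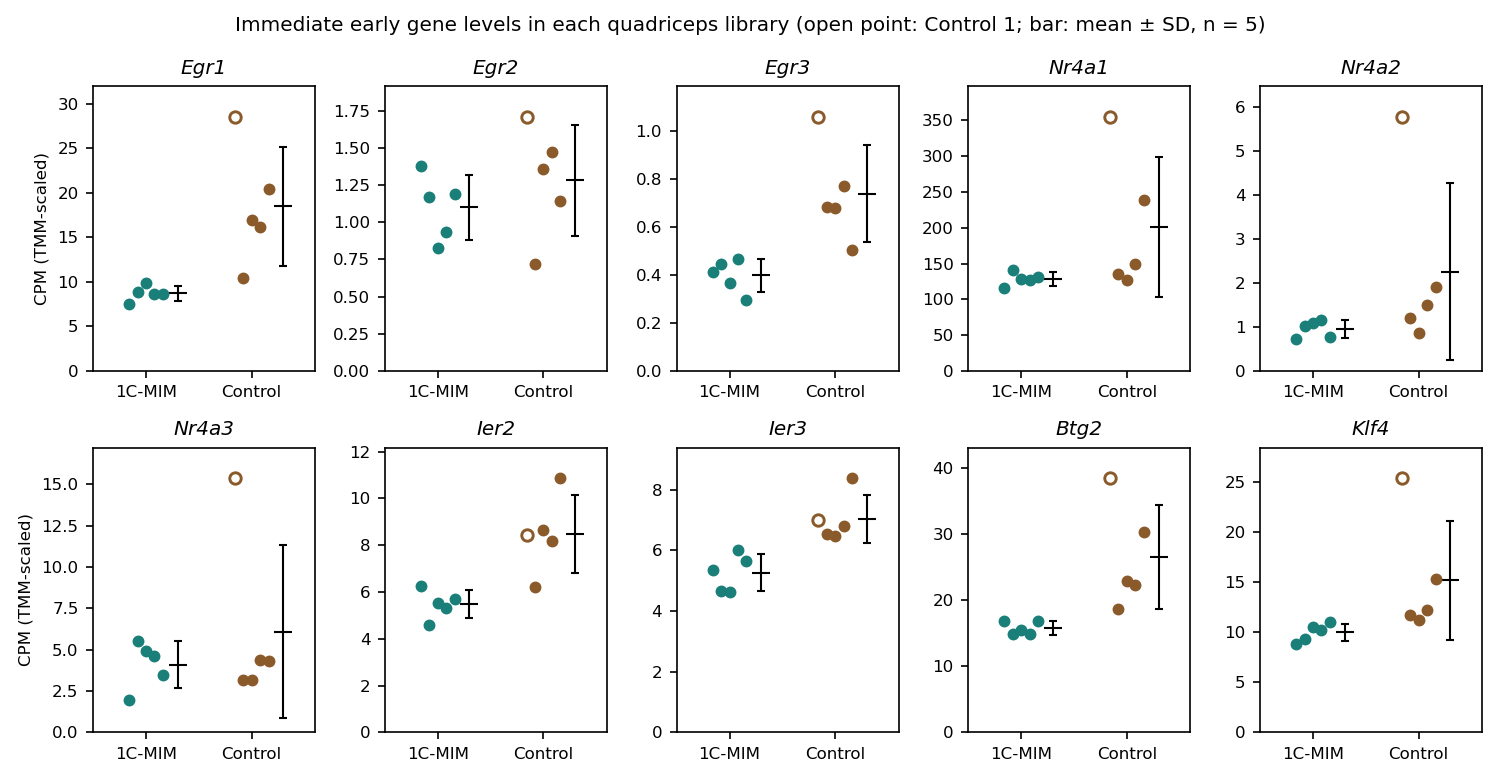
Scaled read counts (CPM, counts per 1000000 reads, TMM-scaled, y axis from 0) of each of the 10 genes in the 5 1C-MIM and 5 Control libraries; each point is a library, the open point is Control 1 and the bars give mean ± SD. The 1C-MIM libraries lie close together for most genes, while Control 1 is the highest library in 8 of the 10 panels.

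Control 1 stood apart from the other libraries. It was the highest of all 10 libraries for 8 of the 10 genes, and Control 5 was the highest for the other 2, Ier2 and Ier3. No 1C-MIM library was the highest for any of them. The nerve transcripts Tubb3, Nefl and Nefm were also far more abundant in Control 1, with 301, 33 and 35 reads. No other library had more than 50, 2 and 5. The Schwann cell and nerve markers as a whole, with these transcripts included, were not higher there. They summed to 92.4 CPM in Control 1 and to 84.0 to 101 CPM in the other Controls. The part of the Tubb3, Nefl and Nefm reads in the high values of the 10 genes was not tested. The fold change without Control 1 is given for each of the 10 genes. The libraries held 28521254 to 31771296 counts after 1 transcript was kept per symbol. The 8 myofibre markers summed to 152814 to 172691 CPM in 1C-MIM and 138896 to 155841 CPM in Control.

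Levels per length were led by Nr4a1 in both groups. Nr4a1 averaged 51.9 ± 3.79 CPM per kilobase in 1C-MIM and 81.2 ± 39.3 in Control (SD, n = 5 each), and its lowest library lay above the highest of every other member in the same group. In 1C-MIM the order by mean level per kilobase went on with Btg2, Ier3, Ier2, Klf4, Egr1, Nr4a3, Egr2, Nr4a2 and Egr3. Among these neighbours, Btg2 and Ier3 overlapped, as did Ier2 with Klf4, Klf4 with Egr1, Egr1 with Nr4a3, and Egr2 with Nr4a2. Egr1 held the sixth place in 1C-MIM and the fourth in Control, where it averaged 6.02 CPM per kilobase and Ier2 5.56. Without Control 1 it came after Ier2 in Control, at 5.202 against 5.567 CPM per kilobase. In Control every neighbouring pair after Nr4a1 and Btg2 overlapped. At the low end, Egr3 had 9 to 31 reads, Egr2 22 to 50 and Nr4a2 21 to 169 in a library.

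Egr1, the EGR factor first induced by growth signals in many cell types, showed the largest decrease among the called genes of the set. It had 7.50, 8.90, 9.90, 8.67 and 8.70 CPM in 1C-MIM 1 to 5, against 28.6, 10.4, 16.9, 16.2 and 20.4 CPM in Control 1 to 5. The highest 1C-MIM library lay just under the lowest Control, Control 2, so the groups did not overlap. It fell to 47.4% of the Control level (log2 fold change -1.08, SE 0.21; edgeR adjusted p = 0.00579). Without Control 1 the log2 fold change was -0.87 (SE 0.15, edgeR adjusted p = 0.00414), and without Control 1 and Control 5 it was -0.73 (SE 0.14).

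Egr3, an EGR factor known for its need in muscle spindle development, was the scarcest of the 10. It had 0.415, 0.446, 0.365, 0.467 and 0.298 CPM in 1C-MIM 1 to 5, against 1.06, 0.685, 0.679, 0.769 and 0.505 CPM in Control 1 to 5. All 1C-MIM libraries lay below all Controls, although the gap between 1C-MIM 4 and Control 5 was 14 against 15 reads. The log2 fold change was -0.79 (SE 0.22, edgeR adjusted p = 0.021), and -0.65 without Control 1 (edgeR adjusted p = 0.0384). Without 1C-MIM 3 the call was lost (-0.76, edgeR adjusted p = 0.0514).

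Egr2, which drives myelin genes in Schwann cells, was not called. It had 1.38, 1.17, 0.830, 0.934 and 1.19 CPM in 1C-MIM 1 to 5, against 1.71, 0.717, 1.36, 1.47 and 1.14 CPM in Control 1 to 5. The groups overlapped, with Control 2 the lowest library of all and Control 1 the highest. Its log2 fold change was -0.21 (SE 0.21, edgeR adjusted p = 0.504), and -0.09 without Control 1 (SE 0.21, edgeR adjusted p = 0.781). A lncRNA gene, Gm32255, overlaps Egr2 in RefSeq, and no source says whether the counting used strand.

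Within the EGR family Egr1 made up most of the transcripts. Its share of the summed CPM per kilobase of the 3 genes was 81.0 to 89.6% in 1C-MIM and 88.4 to 92.8% in Control. The sum was 3.01 to 3.59 CPM per kilobase in 1C-MIM and 3.80 to 10.2 in Control. Of the related genes, Egr4 had at most 2 reads in a library and could not be tested. Nab2, a corepressor that binds EGR proteins and is itself induced by them, had 6.87, 9.44, 7.27, 8.57 and 8.20 CPM in 1C-MIM 1 to 5, against 12.5, 11.5, 11.6, 10.9 and 12.2 CPM in Control 1 to 5. It fell without overlap (log2 fold change -0.53, SE 0.09, edgeR adjusted p = 0.0022; -0.51 without Control 1). Its paralogue Nab1 was not called (-0.06, SE 0.11).

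The 3 NR4A receptors gave 0 calls by edgeR, although Nr4a1 and Nr4a2 had unadjusted p of 0.0357 and 0.0258 and DESeq2 called Nr4a2, and their values were much smaller or reversed without Control 1. Nr4a1 (Nur77), the receptor linked to glucose use in mouse muscle, had 115, 142, 128, 128 and 131 CPM in 1C-MIM 1 to 5. In Control 1 to 5 it had 355, 136, 126, 149 and 239 CPM. Control 2, 3 and 4 lay within or near the 1C-MIM range, and Control 1 and Control 5 lay well above it. The log2 fold change was -0.64 (SE 0.27, edgeR adjusted p = 0.107). It was -0.34 without Control 1 (SE 0.16, edgeR adjusted p = 0.151) and -0.09 without Control 1 and Control 5 (SE 0.07, edgeR adjusted p = 0.443).

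Nr4a2 (Nurr1), best known from dopamine neurons, had 0.725, 1.03, 1.096, 1.17 and 0.761 CPM in 1C-MIM 1 to 5. In Control 1 to 5 it had 5.78, 1.21, 0.865, 1.51 and 1.92 CPM. Control 3 lay inside the 1C-MIM range and Control 1 at about 3 times the next Control. The log2 fold change was -1.17 (SE 0.46, edgeR adjusted p = 0.0867), and -0.49 without Control 1 (SE 0.23, edgeR adjusted p = 0.137). In RefSeq a predicted gene, LOC105244150, overlaps Nr4a2.

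Nr4a3 (Nor1), a receptor that rises after exercise and adrenergic stimulation of muscle, had 1.93, 5.50, 4.92, 4.64 and 3.44 CPM in 1C-MIM 1 to 5. In Control 1 to 5 it had 15.4, 3.16, 3.18, 4.39 and 4.31 CPM. Apart from Control 1, all Controls lay inside the 1C-MIM range. The log2 fold change was -0.56 (SE 0.47, edgeR adjusted p = 0.413), and it turned to 0.12 without Control 1 (SE 0.24, edgeR adjusted p = 0.749). Nr4a1 supplied 94.6 to 97.4% of the summed NR4A level per kilobase in 1C-MIM and 93.4 to 97.1% in Control. Its share was the lowest of all 10 libraries in Control 1 (93.4%). The family sum was 153.6 CPM per kilobase there, against 47.8 to 60.4 in 1C-MIM and 53.1 to 99.5 in the other Controls.

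**Figure D2:**
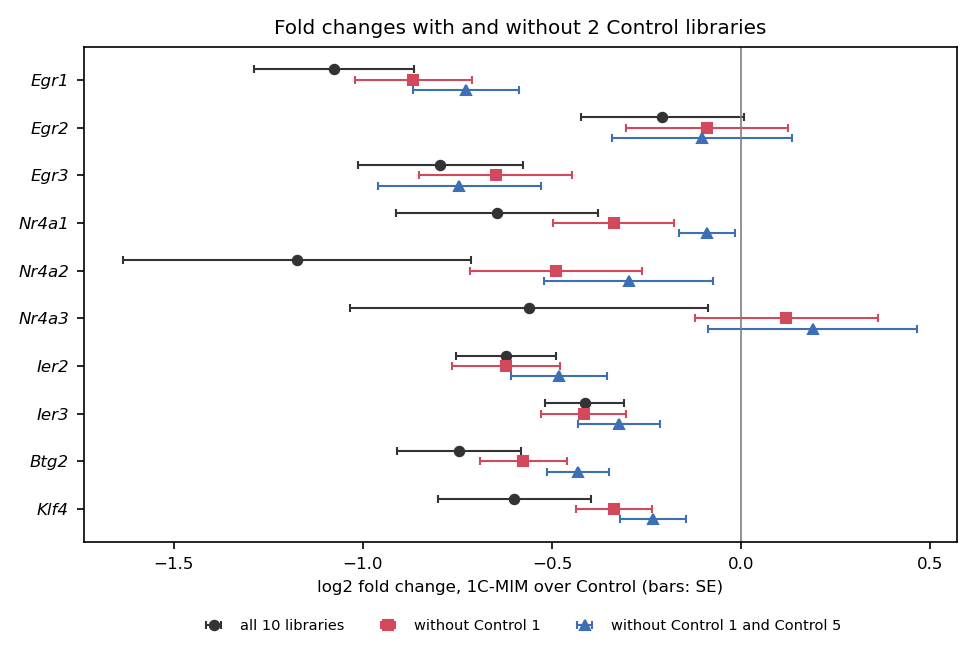
Log2 fold change of 1C-MIM over Control for each gene with its SE (bars), from all 10 libraries (circles), without Control 1 (squares) and without Control 1 and Control 5 (triangles). The values of Ier2 and Ier3 hardly move without Control 1, while that of Nr4a3 changes sign, being -0.56 with all libraries and 0.12 without Control 1.

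Ier2, Ier3 and Btg2 were all lower in 1C-MIM. Ier2, a nuclear protein of the early growth response, had 6.25, 4.602, 5.55, 5.30 and 5.69 CPM in 1C-MIM 1 to 5, against 8.45, 6.20, 8.65, 8.17 and 10.9 CPM in Control 1 to 5. Only 1C-MIM 1 reached above the lowest Control, Control 2. Ier2 fell by 0.62 on the log2 scale (SE 0.13, edgeR adjusted p = 0.00681), and the value was also -0.62 without Control 1. Its highest library was Control 5, and without Control 1 and Control 5 the value was -0.48 (SE 0.13, edgeR adjusted p = 0.027). With each library's length trend removed it was -0.49 (SE 0.11, edgeR adjusted p = 0.00793).

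Ier3, a short-lived regulator of cell survival, had 5.35, 4.67, 4.62, 6.004 and 5.65 CPM in 1C-MIM 1 to 5, against 6.98, 6.52, 6.49, 6.80 and 8.38 CPM in Control 1 to 5. The groups were apart, with Control 5 above the other Controls. The decrease was the smallest of the called genes of the set (log2 fold change -0.41, SE 0.10, edgeR adjusted p = 0.0152). Ier3, with 1090 bases, has the shortest counted transcript of the 10. With each library's length trend removed the value was -0.24 and no longer called (SE 0.09, edgeR adjusted p = 0.0852). Without Control 1 and Control 5 the call was lost too (-0.32, edgeR adjusted p = 0.0655).

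Btg2, an antiproliferative protein that recruits mRNA deadenylases, had 16.9, 14.8, 15.5, 14.9 and 16.9 CPM in 1C-MIM 1 to 5, against 38.5, 18.7, 23.0, 22.3 and 30.4 CPM in Control 1 to 5. The 1C-MIM libraries varied little and lay below every Control. It fell to 59.6% of the Control level (log2 fold change -0.75 with SE 0.16; edgeR adjusted p = 0.00942). Its value was -0.58 without Control 1 (edgeR adjusted p = 0.00607) and -0.43 without Control 1 and Control 5 (SE 0.08, edgeR adjusted p = 0.00684).

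Klf4, a zinc finger factor known from endothelium, macrophages and reprogramming, had 8.84, 9.31, 10.5, 10.2 and 10.98 CPM in 1C-MIM 1 to 5, against 25.4, 11.7, 11.2, 12.2 and 15.3 CPM in Control 1 to 5. The groups did not overlap, but the gap was narrow, between 1C-MIM 5 and Control 3. With all libraries it missed the threshold (edgeR adjusted p = 0.0527), with a log2 fold change of -0.60 (SE 0.20). Without Control 1 the value was smaller and the spread too, and it was called (-0.34, SE 0.10, edgeR adjusted p = 0.0343).

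The 1C-MIM libraries varied less than the Controls in 9 of the 10 genes, the exception being Ier3. For Nr4a1 the coefficient of variation was 7.31% in 1C-MIM and 48.4% in Control, for Btg2 6.45% and 29.8%, and for Ier3 11.6% and 11.1%. Without Control 1, a choice made after seeing the data, the count was 8 of 10: the Control value became 12.8% for Ier3, 31.97% for Nr4a1 and 20.8% for Btg2, while Nr4a3 (34.7% in 1C-MIM, 18.1% in Control) varied more in 1C-MIM and Egr3 (17.1% and 16.8%) about as much. These are descriptions, and the difference in variation was not tested. Over the 10 genes, the mean standardised level was 1.85 SD in Control 1 and 0.84 SD in Control 5, while Control 2 lay at -0.28 SD and the 1C-MIM libraries at -0.68 to -0.49 SD. Control 2 was the lowest Control for 5 genes and Control 3 for 4.

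**Figure D3:**
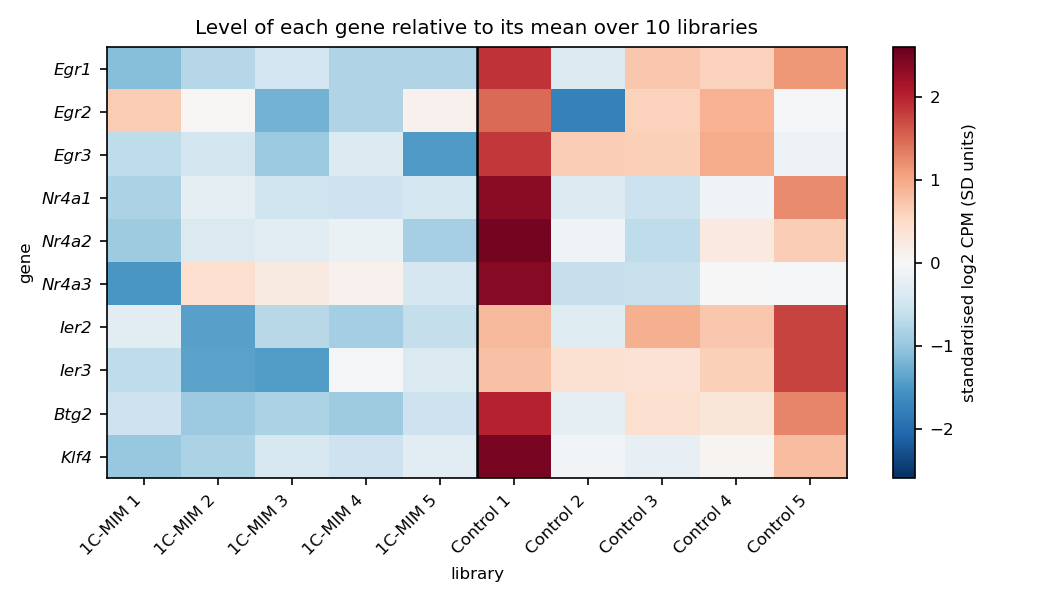
Log2 CPM of each gene (rows), standardised over the 10 libraries (columns; colour in SD units, red above and blue below the gene's mean). Control 1 is the reddest column and reaches 2.50 SD for Nr4a2, while Control 2 is mixed, with Egr2 at -1.75 SD.

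The animal numbers in the deposited names fall into the 280s (3 animals a group) and the 380s (2 a group), and no label says what these series stand for. Within the 280s, which hold Control 1, the log2 fold change of Egr1 was -1.08, and within the 380s it was -1.07. For Btg2 it was -0.76 and -0.72, for Egr3 -0.87 and -0.65, for Ier2 -0.50 and -0.78, and for Ier3 -0.44 and -0.37. All 10 genes had negative values in both series, the smallest in size being Nr4a3 in the 380s at -0.10. In the 280s 0 of the 10 genes were called by edgeR (adjusted p of 0.144 or more), where 0.459% of all tested genes were called lower. There 5 of the 10 had an unadjusted p under 0.05, a threshold at which the share of all tested genes was not counted. In the 380s Egr1 and Ier2 were called lower (edgeR adjusted p = 0.00927 and 0.0489), where 1.93% of all tested genes were.

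Markers of other cell types were counted by the same test, under which 11.8% of all tested genes were called lower and 9.78% higher, 21.6% in all. Of 9 tested macrophage markers 7 were lower and 0 higher in 1C-MIM, with a summed level of 141 to 202 CPM in 1C-MIM and 247 to 465 CPM in Control. Of 8 fibro-adipogenic progenitor markers 5 were lower (556 to 797 CPM in 1C-MIM, 639.9 to 776 in Control), and 2 of 5 lymphocyte markers were lower (6.27 to 8.52 CPM in 1C-MIM, 7.74 to 13.9 in Control). Of 8 endothelial markers 5 were higher (275.3 to 323 CPM in 1C-MIM, 193 to 275.3 in Control), and of 7 Schwann cell and nerve markers 1 was higher (92.5 to 110 CPM in 1C-MIM, 84.0 to 101 in Control). Each macrophage marker in the tables had reads. Without Control 1, 6 macrophage, 5 progenitor and 4 lymphocyte markers were lower and 2 endothelial markers were higher. Of the other lists, 3 of 8 myofibre markers, 2 of 8 smooth muscle and pericyte markers and 1 of 3 red blood cell markers were higher, 2 of 7 satellite cell markers were lower, and of 7 adipocyte markers 1 was higher and 1 lower. Of 4 granulocyte and mast cell markers 0 were called by edgeR, DESeq2 or limma-voom, and 0 had an unadjusted p under 0.05. The part of these cells in the values of the 10 genes was not tested.

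Around the 10 genes, other parts of the same response were described by lists drawn up with earlier results of these data known. Of the 7 AP-1 factors, the Fos and Jun partners of the immediate early response, 5 were lower and 1 higher, with a median log2 fold change of -0.56. Junb fell by 1.283 (SE 0.09) and Fos by 1.77 (SE 0.20; edgeR adjusted p = 7.54e-06 and 0.000271). The member that was higher, Jun, is named after its value was seen (0.16, SE 0.05), and its call was lost under 12 of 22 alternatives, among them library totals and upper-quartile factors as the scaling, no filter on low counts, the animal number series as a block and the fit without Control 1. Among 31 other immediate early genes, 5 fell, 1 rose and 25 did not pass the test (median -0.23, all tested genes 0.00). The shares to set beside the counts of both lists are those over all tested genes, 11.8% lower and 9.78% higher, 21.6% in all. Rgs2, which limits G protein signalling, fell by 0.57 (SE 0.11, edgeR adjusted p = 0.00502), while the polo-like kinase gene Plk2 rose by 0.42 (SE 0.09, edgeR adjusted p = 0.00787). Without Control 1 the values were -1.70 for Fos, -0.62 for Rgs2 and 0.35 for Plk2, and that of Junb moved to -1.32. In that fit the list of other immediate early genes gave 5 lower and 2 higher. The list gave 3 lower without 1C-MIM 2, 3 or 4, 10 lower without Control 2 and 10 lower with library totals as the scaling. The count over all tested genes moved too. It was 1246, 1057 and 941 lower without 1C-MIM 2, 3 and 4, 1706 without Control 2 and 2896 with library totals, against 1642 in the main fit.

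**Figure D4:**
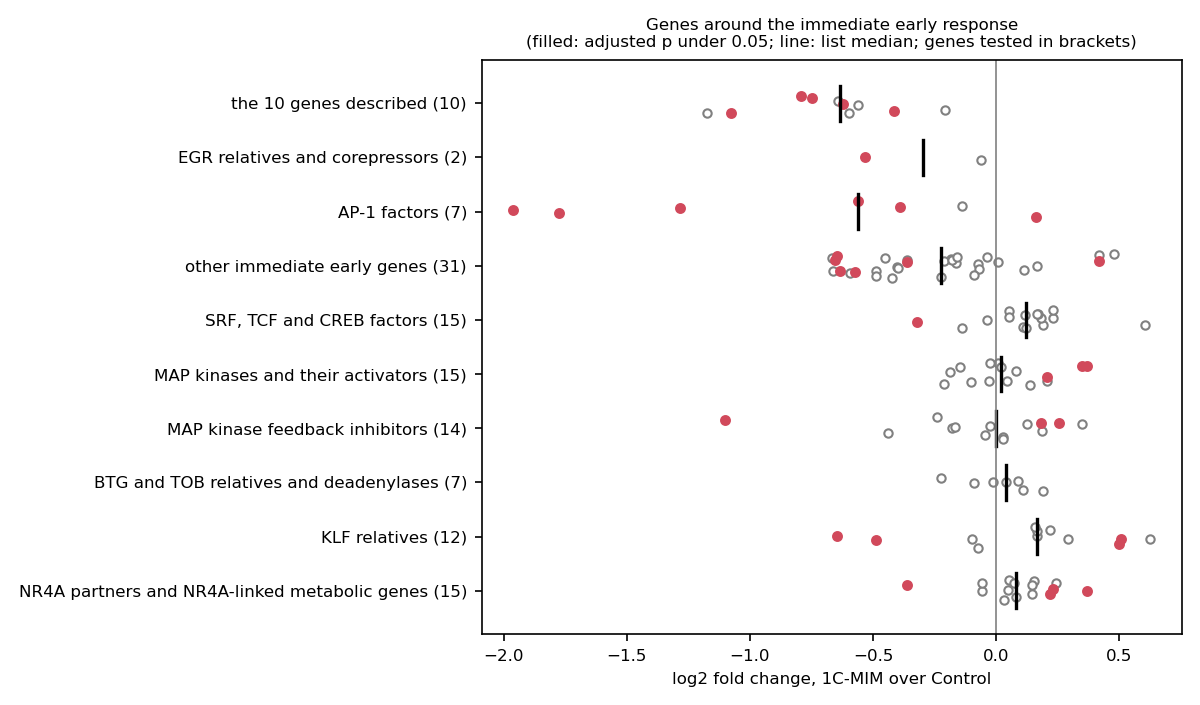
Log2 fold change of 1C-MIM over Control (x axis) for the tested members of the set and of each related list (rows; number tested in brackets); filled points have an adjusted p under 0.05 and the vertical line is the median. The 10 genes (median -0.63) and the AP-1 factors (-0.56) lie mostly left of 0. The MAP kinases and activators (0.02) lie around it, and the SRF, TCF and CREB factors (0.12) lie mostly right of it.

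Among all tested genes 11.8% were called lower and 9.78% higher, 21.6% in all, which are the shares to set beside the called counts that follow. They do not apply to counts at an unadjusted p. Of 15 SRF, TCF and CREB factors 1 was lower by edgeR (median 0.12) and 0 were higher (5 at an unadjusted p under 0.05, 2 by DESeq2). The lower one was Crem, the inducible cAMP-responsive repressor gene (-0.32, SE 0.07, edgeR adjusted p = 0.00999). Srf itself had a log2 fold change of -0.04 (SE 0.05). Of 15 MAP kinases and activators 3 were higher by edgeR (median 0.02) and 0 were lower (1 at an unadjusted p under 0.05, 0 by DESeq2). Among these, Mapk9 (0.20, SE 0.06, edgeR adjusted p = 0.0362) and Rps6ka5 (0.37, SE 0.12, edgeR adjusted p = 0.0381) lost their calls with library totals as the scaling (adjusted p = 0.204 and 0.0992), without the length trend (0.129 and 0.0703) and without several single libraries.

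Of 14 feedback inhibitors of MAP kinases 2 were higher and 1 lower (median 0.00). Dusp5, a nuclear phosphatase of ERK, fell by 1.101 (SE 0.30, edgeR adjusted p = 0.0194; 0.0575 without 1C-MIM 4) at 0.202 CPM in 1C-MIM and 0.510 CPM in Control, and Dusp16 was higher (0.25, SE 0.07, edgeR adjusted p = 0.0271), a call lost with library totals, without the length trend and without Control 3, 1C-MIM 3 or 1C-MIM 4. Dusp1, an immediate early phosphatase, had 49.6 ± 3.02 CPM in 1C-MIM and 48.6 ± 10.01 CPM in Control (SD, n = 5 each; log2 fold change 0.03, SE 0.11).

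Relatives of the single members behaved in mixed ways. Of 7 BTG and TOB relatives and deadenylases tested, 0 were called by edgeR (median 0.04), with 2 at an unadjusted p under 0.05 and 1 called higher by DESeq2. Of 12 KLF genes tested, 2 were lower and 2 higher (median 0.17). Without Control 1, 4 of 13 KLF genes tested were higher and 2 lower (median 0.31). Klf2, the flow-responsive endothelial factor, fell by 0.65 (SE 0.15, edgeR adjusted p = 0.00949, and -0.36 without Control 1 and Control 5). Klf2, Klf6 and Klf10 were also counted in the list of other immediate early genes, so the lists overlap. Klf9, a glucocorticoid-responsive factor, rose by 0.50 (SE 0.12, edgeR adjusted p = 0.0128). In the list of NR4A partners and metabolic genes linked to NR4A in muscle, 3 of 15 were higher and 1 lower (median 0.08). The glycogen phosphorylase gene Pygm rose by 0.23 (SE 0.06, edgeR adjusted p = 0.0119) and the phosphoglycerate mutase gene Pgam2 fell by 0.36 (SE 0.08, edgeR adjusted p = 0.00698; -0.17 with the length trend removed). Without Control 1 the log2 fold changes were -0.32 for Crem, -1.01 for Dusp5, 0.29 for Dusp16, -0.55 for Klf2, 0.54 for Klf9, 0.21 for Pygm and -0.38 for Pgam2, and each of these remained called.

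Genes whose library-to-library pattern was most like that of the 10 were sought after subtraction of group means, by the root mean square distance between standardised log2 profiles over the 10 libraries (0 for identical profiles). Nearest to the mean of the 10 were Apold1 (0.252), Flcn (0.279), Dnajb1 (0.280), Rtn3 (0.289) and Dnaja1 (0.293). With group means subtracted, a like pattern does not speak to the difference between the groups. The log2 fold changes of these genes were -0.92, -0.01, -0.85, -0.07 and -0.38 in that order. Only Apold1 was called (edgeR adjusted p = 0.0338), and Dnajb1 just missed the threshold (edgeR adjusted p = 0.050002). Dnajb1, a heat shock co-chaperone gene and also the nearest gene to Nr4a1 alone (0.189), had 6.01, 6.04, 5.81, 6.10 and 5.95 CPM in 1C-MIM 1 to 5, against 20.4, 6.98, 6.70, 8.05 and 12.1 CPM in Control 1 to 5. The Control libraries stood in the same order as for Nr4a1, with Control 1 and Control 5 highest, a likeness for which Dnajb1 was picked. Nearest to Egr1 was Serpinh1, a collagen chaperone gene (0.156), to Btg2 Myl4, an embryonic light chain gene (0.179), to Klf4 Slc7a8 (0.214), to Nr4a2 Fbxo32 (0.225), to Nr4a3 Pclo (0.251), to Egr3 Mipol1 (0.257), to Ier2 Tagln2 (0.281), to Egr2 Eef1a1 (0.322) and to Ier3 Tmem41a (0.356). The log2 fold changes of these nearest genes ranged from -1.70 (Myl4) to 0.32 (Mipol1). Among the 10 themselves the closest pair was Nr4a1 and Klf4 (0.351) and the most distant Egr3 and Ier2 (1.65).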

How the data were processed

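Total RNA from quadriceps of 10 animals was sequenced, with RNA extraction and library preparation by Active Motif, per the labels. Per the file headers, the deposited tables hold 33984 RefSeq transcripts with 3 measures each. The counts were deposited as raw whole numbers. The FPKM values, which the authors scaled by transcript length and depth, served only to recover transcript lengths, and the deposited TPM values were not used. The submitters' processing notes name STAR, Salmon 1.5.2, featureCounts, Subread 2.0.1, StringTie 2.2.1 and the build GRCm39, with no roles. Strandedness is not stated.

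Isoform counts overlap, so the transcript with the largest total stood for each symbol, and 45.3 to 47.4% of the counts in a library were set aside. Counts of 9 to 31 reads for Egr3 and 22 to 50 for Egr2 limit the precision of these genes. Genes were filtered with filterByExpr, scaled with TMM factors and tested in edgeR 4.0.16 (R 4.3.3) with the quasi-likelihood F test and robust dispersion. Log2 fold changes used a prior count of 2, the SE is the fold change divided by the square root of F, and calls were made at a Benjamini-Hochberg value under 0.05. The fit was tested on simulated data. Alternatives were other scalings, filters, DESeq2 1.42.0, limma-voom (limma 3.58.1), blocks, libraries left out, summed transcripts, length-trend offsets (splines with 3 inner knots) and a threshold of 0.1. Each of the 10 genes is named whatever its result, with the 2 called genes of smallest p in each related list. Other genes are named as nearest in pattern or as markers, and Srf, Nab1 and Dusp1 were chosen after their values were seen. Members and lists were chosen with earlier results of these data known.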

Additional observations from a re-analysis of the deposited data

Results flagged for a closer look

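Of 20 groups of 5 libraries (10 genes, 2 groups), 4 held a library whose gap to its nearest neighbour exceeded 0.71 of the range of its group, and chance alone flags about 1 in 20 groups. Nr4a2 was at 5.78 CPM in Control 1, where the next Control had 1.92 CPM. Nr4a3 was at 15.4 CPM in Control 1, where the next Control had 4.39 CPM. Klf4 was at 25.4 CPM in Control 1, where the next Control had 15.3 CPM. Ier3 was at 8.38 CPM in Control 5, where the next Control had 6.98 CPM. These libraries are not independent across genes, since Control 1 gives 3 of the 4.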

How the results depend on the processing

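Between 4 and 7 of the 10 genes were called lower under the 23 alternatives, each within 1.5 times of the 5 reported, and 0 were higher under any of them. Egr1, Ier2 and Btg2 were called lower under all 22 alternatives fitted to both animal series. Nr4a3 reversed, with 0.12 among fits without 1 library (lowest -0.72) and 0.19 without Control 1 and Control 5; the cause was not tested. Nr4a2 was called by DESeq2 (-1.23, adjusted p = 0.0214) and without Control 3 (-1.38). Klf4 was called in 8 of 22. Egr3 was not tested under the filter of 1 CPM in 5 libraries.

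The count of all tested genes depended on the scaling and the libraries: library totals gave 606 higher and 2896 lower, and leaving out Control 1 and Control 5 gave 832 higher and 976 lower. Leaving out 1 library gave 739 (without 1C-MIM 4) to 1558 higher and 941 (without 1C-MIM 4) to 1885 lower. With library totals the median of all genes was -0.07.

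The replicate numbers gave no clear pairing of the libraries: same-numbered libraries correlated at -0.08 to 0.39. 1C-MIM 3 and 5 were nearest to the Control of their own number, while 1C-MIM 1, 2 and 4 were not. With the replicate block 5 of the 10 genes were called lower. All tested genes then gave 1932 higher and 1965 lower, against 1357 and 1642 without the block. Read counts under 60, as in Egr2 and Egr3, limit what can be seen of these genes.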
